A study of Homo sapiens with 22 samples.

Results

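Human chromosome 9 is described here as a single block of genes, from the end of its short arm to the end of its long arm. Its members were the genes whose first listed position in the antisense oligonucleotide count table was on chromosome 9, which gave 2212 of the 57316 genes of that table, 735 on the short arm (start below position 43000000) and 1477 on the long arm. The chromosome was selected on measured values, because its genes stood high in a SMYD3 knockout clone, so every knockout value of a member is a description with no test.

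SMYD3 is a lysine methyltransferase and UHRF1 is a chromatin protein that helps maintain DNA methylation. The study asked how they bear on the interferon response of HN-6, a squamous carcinoma cell line of the head and neck, by RNA sequencing of 22 libraries in 8 groups. The knockout comparison set 3 libraries of 1 SMYD3 knockout clone (5-3) beside 3 of parental HN-6. The other comparisons used HN-6 cells: 3 SMYD3 siRNA libraries (1 siRNA, si1SMYD3) with 3 of control siRNA (siNC), 2 libraries of an antisense oligonucleotide to SMYD3 (ASO081) with 2 of PBS, and 3 UHRF1 siRNA libraries with 3 of their own siNC control. The knockdown and PBS treatments lasted 72 h. All 8 groups received human interferon beta at 1000 U/ml for the last 24 h, so no group shows the level without interferon. For the 6 libraries of the SMYD3 siRNA comparison the sample's treatment label names only the siRNA, while the protocol and the series design name interferon too. Replicates are called biological by the submitters, with no statement of how the cultures were separated.

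SMYD3 itself checked the labels. Its level, as a read count scaled by the authors, was 343, 309 and 314 in the parental libraries and 113, 91.5 and 76.3 in the knockout clone. SMYD3 log2 fold changes were -2.41 ± 0.12 (SE) with SMYD3 siRNA and -2.52 ± 0.12 with the oligonucleotide. In CPM, the counts scaled to the size of each library, UHRF1 stood at 66.4, 63.0 and 64.1 with control siRNA and at 1.88, 2.69 and 2.10 with UHRF1 siRNA. The clone thus still held SMYD3 transcript, and a transcript level does not show the protein. UHRF1 also fell with SMYD3 siRNA, at a log2 fold change of -1.68 ± 0.14 and an edgeR quasi-likelihood Benjamini-Hochberg adjusted p of 4.21e-07.

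Libraries held 24783605 to 62921144 reads. Mitochondrial genes took 14.9 to 15.7% of the reads in the parental libraries and 4.82 to 4.88% in the knockout clone; their part in the knockout values was not tested beyond a fit without them, given below. All 6 squamous epithelial markers were detected in every group, with a summed level of 1457 to 4345 CPM over the libraries, and the 5 leukocyte markers summed to 2.71 to 16.8 CPM, with 2.71 to 3.76 CPM in the control siRNA and 10.4 to 11.9 CPM in the UHRF1 siRNA libraries of the UHRF1 comparison. Fibroblast and endothelial markers summed to 56.7 to 60.4 CPM in the parental libraries and 15.9 to 17.7 CPM in the clone, and to 109 to 112 CPM with the control siRNA of the UHRF1 comparison and 509 to 586 CPM with UHRF1 siRNA. Their part in the values below was not tested. In bulk RNA, more RNA per cell and more cells that express a gene cannot be told apart.

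Chromosome 9 is known for a cluster of type I interferon genes on its short arm, next to the cell cycle inhibitors CDKN2A and CDKN2B, in a stretch that is often lost in squamous carcinoma. The same arm carries RIGI, a cytoplasmic sensor of viral RNA that is listed in these tables as DDX58, and a stretch with JAK2, a kinase of the interferon receptors, beside CD274 and PDCD1LG2, which encode the immune checkpoint ligands PD-L1 and PD-L2. Interferon beta acts through a cell surface receptor, and many of the genes it induces carry interferon-stimulated response elements in their promoters.

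Promoter sequence is shown for 3 chromosome 9 genes on which the interferon results turn, because they differ in the letters of the interferon-stimulated response element. RefSeq promoters (GRCh38.p14, 250 bases before to 50 after each start, 300 in all) were searched for GAAA, any 2 bases and GAAA again, which reads TTTC, any 2 bases and TTTC on the other strand, and for TTCNNNGAA, the letters of a gamma-activated site, which read the same on both strands. Capitals mark matches to the first motif, and each sequence runs 5′ to 3′ on the strand of its gene. CD274 is shown from chr9:5450292-5450441 (plus strand), TRIM14 from chr9:98119223-98119372 (minus strand) and RIGI from chr9:32526197-32526346 (minus strand).
CD274: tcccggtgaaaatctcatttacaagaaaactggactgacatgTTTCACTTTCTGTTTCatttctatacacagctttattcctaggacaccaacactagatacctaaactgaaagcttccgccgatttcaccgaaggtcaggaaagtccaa
TRIM14: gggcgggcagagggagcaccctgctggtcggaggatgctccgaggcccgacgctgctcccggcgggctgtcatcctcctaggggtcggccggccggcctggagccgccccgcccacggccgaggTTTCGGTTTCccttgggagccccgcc
RIGI: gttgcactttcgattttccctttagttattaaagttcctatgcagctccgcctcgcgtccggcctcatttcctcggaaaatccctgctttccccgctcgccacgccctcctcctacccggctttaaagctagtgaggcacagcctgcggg
CD274 had 2 overlapping matches and TRIM14 had 1, and the RIGI window had none. CD274 also held 1 match to the gamma-activated site letters. None of the 4 JAK2 promoters nor the TDRD7 promoter held a match to either motif. The first motif was in 1255 of all 35116 promoters (3.57%) and in 40 of the 1584 on chromosome 9 (2.53%), and the second in 2689 (7.66%) and 102 (6.44%). A match is a description of letters and not a measured site. In the knockout comparison, the 16 tested chromosome 9 genes with the first motif had a median log2 fold change of 0.96 (13 higher, 2 lower), and the 430 without it had a median of 0.52 (279 higher, 108 lower), on values that selected the chromosome. Of the genes with that motif 6 of 18 rose and 3 fell with SMYD3 siRNA, 5 of 17 rose and 3 fell with the oligonucleotide, and 7 of 17 rose and 7 fell with UHRF1 siRNA. Of those without it 134 of 469 rose and 133 fell, 49 of 468 rose and 66 fell, and 165 of 472 rose and 162 fell. Nothing is read from counts this small.

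Both arms stood higher in the knockout clone. Of the 2212 genes, 545 were listed in the knockout table, all with values above 0, and 535 passed the filter on low values (142 on the short arm and 393 on the long arm), of 16950 genes tested. The short-arm median log2 fold change (clone over parental) was 0.43 above that of the other chromosomes and the long-arm median was 0.41 above it, or 1.35-fold and 1.33-fold. The median of 13092 genes on other chromosomes was 0.10. Of the short-arm genes 69.0% had a positive change, of the long-arm genes 70.0%, and of genes on other chromosomes 54.1%. By limma with Benjamini-Hochberg adjustment at 0.05, 346 chromosome 9 genes (64.7%) were called higher and 138 (25.8%) lower, beside 42.1% and 42.5% of all genes tested. All genes tested include genes that placement by symbol put on no chromosome. Of those placed on other chromosomes, 47.2% were called higher and 38.8% lower. Nothing is read from the count of chromosome 9 calls, since the chromosome was chosen on this contrast. At a log2 fold change of 1 or more, 165 of these genes were higher and 54 lower.

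The split depends on the scaling. With upper quartile scaling of the recovered reads in edgeR, 286 chromosome 9 genes were called higher and 195 lower, so that the share of higher calls went from 71.5% to 59.5%, and the median of the other chromosomes went from 0.10 to -0.18. The arm medians under that scaling, 0.26 and 0.24, still stood above the other chromosomes. Without the mitochondrial genes 340 were called higher and 143 lower. Joining by Ensembl identifier placed more genes, with 382 called higher and 203 lower, and a median of -0.03 on the other chromosomes beside 0.38 on the short arm and 0.39 on the long arm.

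The shift was present in each library. After each gene was centred on its mean over the 6 libraries, the short-arm median less that of other chromosomes was -0.24, -0.21 and -0.23 in the parental libraries and 0.21, 0.28 and 0.21 in the knockout libraries on the log2 scale. For the long arm it was -0.21, -0.21 and -0.21 in the parental libraries and 0.19, 0.19 and 0.21 in the knockout libraries. The groups do not overlap, and the replicates of a group lie closer to each other than to the other group. The share of non-mitochondrial reads from chromosome 9 was 3.24% ± 0.0043 (SD, n = 3) in parental cells and 4.06% ± 0.0091 in the clone. The short arm went from 0.566% to 0.796% of reads and the long arm from 2.67% to 3.27%.

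**Figure D1:**
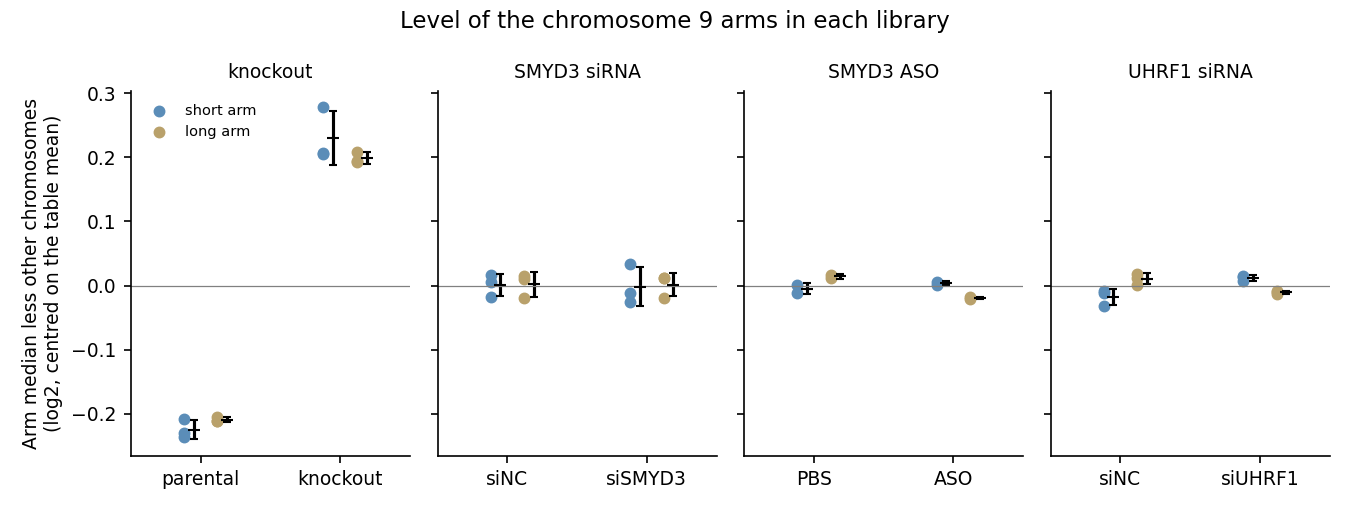
Each point is 1 library; the vertical axis is the median level of an arm's genes less that of the other chromosomes (log2, each gene centred on its mean in that table), with blue for the short arm, tan for the long arm, and bars for mean and SD. Both arms sit near -0.21 in the parental libraries and near 0.2 in the knockout libraries, and the 16 libraries of the other tables stay near 0.

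Over all tested genes, no such shift of the arm medians was measured in the comparisons that played no part in the choice. With SMYD3 siRNA the short-arm median was -0.05 and the long-arm median 0.01 relative to the other chromosomes, over 717 chromosome 9 genes tested (185 and 532). With the oligonucleotide these were -0.001 and -0.04 over 704 genes (185 and 519). With UHRF1 siRNA they were 0.03 and -0.02 over 706 genes (190 and 516). Among the 23 chromosomes, chromosome 9 had the highest median in the knockout (0.53, with chromosome 3 next at 0.27), and it ranked 15 with SMYD3 siRNA, 23 with the oligonucleotide and 12 with UHRF1 siRNA. The rank in the knockout is what the chromosome was chosen for.

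**Figure D2:**
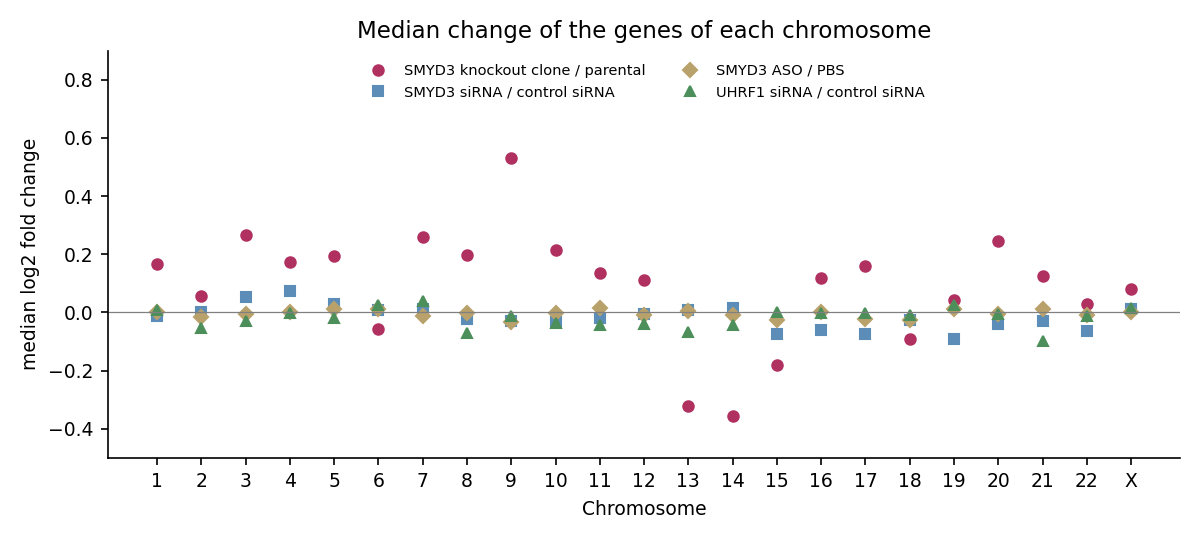
The horizontal axis lists the chromosomes and the vertical axis is the median log2 fold change of their tested genes, with 1 symbol for each comparison. In the knockout, chromosome 9 is highest at 0.53 and chromosome 14 lowest at -0.35, while the chromosome 9 symbols of the other comparisons lie between -0.03 and -0.01.

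Calls on chromosome 9 followed those of all genes in the knockdown comparisons. By edgeR's quasi-likelihood test, 178 (24.8%) rose and 179 fell with SMYD3 siRNA, beside 24.2% and 24.4% of all genes. With the oligonucleotide 67 (9.52%) rose and 81 (11.5%) fell, beside 11.3% and 10.3%. With UHRF1 siRNA 221 (31.3%) rose and 225 (31.9%) fell, beside 32.0% and 32.7%. These shares are near the background. With UHRF1 siRNA 61 of 190 short-arm genes rose and 44 fell, and 160 of 516 long-arm genes rose and 181 fell; the difference between the arms was not tested. The oligonucleotide counts rest on 2 libraries a group: DESeq2 called 41 higher and 47 lower, and edgeR without PBS replicate 2 called 49 lower.

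Knockout values differed by the level of a gene. Among genes with a mean below 100 scaled reads, the chromosome 9 median log2 fold change was -0.66 and that of other chromosomes -0.99. Between 100 and 1000 the medians were 0.33 and -0.08, and at 1000 or more they were 0.72 and 0.37. Chromosome 9 stood above the other chromosomes in each range. When each gene was compared with genes of other chromosomes in the same of 10 equal bands of mean level, a comparison added after the data were seen, the short-arm median was 0.53 and the long-arm median 0.35. With SMYD3 siRNA, the oligonucleotide and UHRF1 siRNA, short-arm genes at 30 CPM or more had medians of 0.21, 0.05 and 0.24. Those of other chromosomes were 0.09, 0.03 and 0.07. Below 3 CPM the short-arm medians were -0.19, -0.07 and -0.14, beside -0.09, -0.08 and -0.07. These differences were not tested.

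Along the chromosome the shift in the clone reached most stretches, with interruptions at 2 places when it was cut into windows of 25 genes. The 535 genes were cut into 22 windows in order of position, 25 genes each except the last of an arm, and 19 windows had a median above that of the other chromosomes. Of 517 such windows on other chromosomes, 269 (52.0%) did. At 0.25 or more above, there were 17 windows on chromosome 9 and 114 elsewhere (22.1%). Window medians on chromosome 9 ran from -0.26 to 1.20, and those elsewhere from -1.20 to 0.87, so the lowest window elsewhere lay below any on chromosome 9 and the highest elsewhere lay below the highest on chromosome 9. The short-arm interruption depends on the cut. In windows of 50 genes the lowest of that arm, from CD72 to CNTNAP3B, stood 0.20 above the other chromosomes. The last long-arm window of 50 genes stood 0.03 above. Of 25 stretches of 5 Mb, 24 stood above the other chromosomes, with the one from 35000001 to 40000000 at 0.38. Only 9 of the 25 held 20 or more genes, and the rest are thin. Those 9 all stood above, by 0.01 (from 135000001 to 140000000) to 0.94. These windows and stretches use the values that selected the chromosome. Relative to the other chromosomes, windows of chromosome 9 ran from -0.23 to 0.19 with SMYD3 siRNA, from -0.13 to 0.09 with the oligonucleotide and from -0.39 to 0.39 with UHRF1 siRNA.

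**Figure D3:**
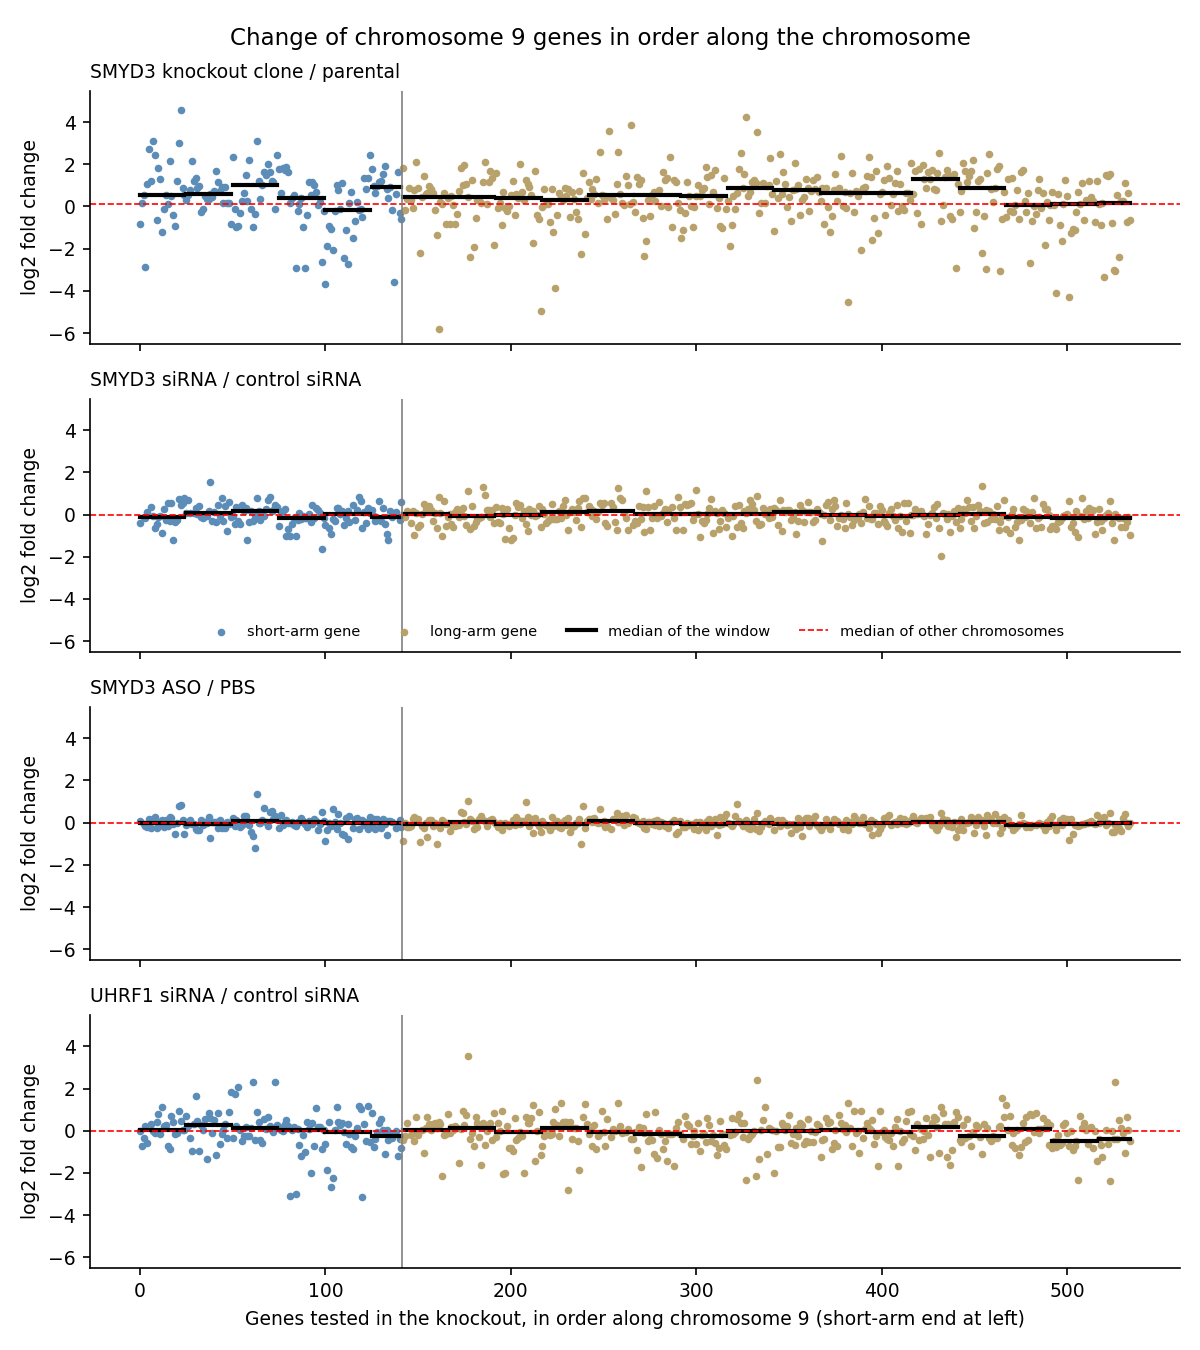
Genes tested in the knockout are placed in order along chromosome 9, with the short-arm end at left and a grey line between the arms; the vertical axis is the log2 fold change in each comparison, black bars are window medians and the red dashed line is the median of other chromosomes. In the knockout 19 of 22 bars lie above the red line; in the other panels bars lie on both sides of it.

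From the short-arm end, the first window (WASHC1 to ERMP1) stood 0.43 above the other chromosomes and the second (KIAA2026 to IFNE) 0.51. The third, which starts at MTAP, just past IFNE of the interferon cluster, and ends at NOL6 (starts from 21802543 to 33461353), stood 0.94 above and holds RIGI. The fourth (ANKRD18B to TESK1) stood 0.29 above. The fifth, from CD72 to POLR1E (starts from 35609533 to 37485948), was the lowest of the chromosome at -0.26, with 10 of its 25 genes positive. The last short-arm window, 17 genes from FBXO10 to CNTNAP3B, stood 0.84 above.

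The low window mixed large falls with clear rises; its genes are named here after their values were seen unless a gene list holds them. CD72 (a B-cell receptor regulator) had a knockout log2 fold change of -3.67, TMEM8B -2.72, SPAG8 -2.45 and CA9 (a carbonic anhydrase induced by hypoxia) -2.04. RMRP, the RNA of the ribonuclease MRP complex, was at -1.88 and RECK, an inhibitor of matrix proteases, at -1.48. Of these falls, CD72, SPAG8 and RMRP each missed a condition of the ranking used below: a call, groups apart or a log2 CPM averaging at least 1. In the same window POLR1E, a subunit of RNA polymerase I, was at 2.46, ZCCHC7 at 1.36, ZBTB5 at 1.33 and TLN1 (talin, which links integrins to actin) at 1.04. In the other comparisons this stretch was close to the other chromosomes, at 0.03 with SMYD3 siRNA, -0.01 with the oligonucleotide and -0.06 with UHRF1 siRNA.

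On the long arm the first 7 windows lay between 0.22 and 0.43 above the other chromosomes and the next 4 between 0.52 and 0.76. The highest window of the chromosome, from DOLK to PRRC2B (starts from 128945530 to 131373636), reached 1.20. Of its 25 genes 18 were called higher and 6 lower in the clone, beside 47.2% and 38.8% of genes on other chromosomes. Its members at the top, named after their values were seen, were NCS1 (a neuronal calcium sensor) at 2.55, NTMT1 (an N-terminal methyltransferase) at 1.97, DOLPP1 at 1.80, the exosome subunit EXOSC2 at 1.71, the nuclear pore proteins NUP188 at 1.70 and NUP214 at 1.52, and the kinase ABL1 at 1.51. FAM78A was at -2.90 and ASS1, an enzyme of arginine synthesis, at 0.05 (-0.23 with upper quartile scaling). FAM78A missed a condition of the ranking used below: a call, groups apart or a log2 CPM averaging at least 1. In the other comparisons this window stood at 0.01, 0.02 and 0.20.

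The shift ended short of the long-arm tip. After the window from POMT1 to SLC2A6 at 0.79, the last 3 windows, 68 genes from SARDH to TUBBP5 (starts from 133663560 to 138150075), stood at -0.02, -0.003 and 0.05. Over these 68 genes 33 were called higher and 26 lower in the clone, beside 47.2% and 38.8% of genes on other chromosomes. Named after their values were seen, LCN12 at -4.31, CCDC183 at -4.13 and ENTPD8 at -3.05 lay among CAMSAP1 (a microtubule minus-end protein) at 1.72, MRPS2 at 1.62 and the Notch regulator NRARP at 1.52. Unlike ENTPD8, LCN12 and CCDC183 each missed a condition of the ranking used below: a call, groups apart or a log2 CPM averaging at least 1. With SMYD3 siRNA the same stretch stood at -0.16. There 10 of its 68 genes were called higher and 28 lower, beside 24.2% and 24.4% of all genes. With the oligonucleotide it stood at -0.07 (6 and 7 of 67, beside 11.3% and 10.3%). With UHRF1 siRNA it stood at -0.07 (18 and 26 of 67, beside 32.0% and 32.7%). These counts were not tested. Against genes of like level, the end stretch was at 0.04 in the knockout and the low short-arm window at -0.43. Low values by that comparison were not confined to these places. The long-arm windows from DUX4L50 to OSTF1 and from FAM120AOS to TSTD2 were at 0.10 and 0.13. The window from SARDH to AGPAT2, in the end stretch, was at 0.11, and the highest window, from DOLK to PRRC2B, at 1.01.

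The values next to the split of the arms need care, because genes around the centromere have near-identical copies that counting can divide. Just inside the short arm CBWD6 was at -0.32 and CNTNAP3B at -0.59 in the knockout, and just outside it DUX4L50 was at 1.82 and CBWD5 at -0.18. DNA copy number was not measured here, and a change in copies was not tested.

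The interferon-linked genes of the short arm were RIGI, CD274, PDCD1LG2, JAK2 and IL33, an alarmin cytokine. IL33 passed the filter in no comparison, with at most 7 reads in a library of the SMYD3 siRNA table. For the other genes, each change was set beside the median change of its 20 nearest tested neighbours, 10 on each side.

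RIGI (DDX58; chromosome 9, 32455302 to 32526208, minus strand) read 1852, 2281 and 2180 scaled reads in the parental libraries and 17331, 18900 and 17203 in the knockout clone, a log2 fold change of 3.08 ± 0.07 (SE). With SMYD3 siRNA it went from 338, 346 and 318 CPM to 609.5, 596 and 524 CPM. With the oligonucleotide it went from 135 and 142 CPM to 351 and 369 CPM, and with UHRF1 siRNA from 268, 274 and 273 CPM to 508, 483 and 500.2 CPM. The groups did not overlap in any of the 4 comparisons. DDX58 rose by a log2 fold change of 0.79 ± 0.09 with SMYD3 siRNA (edgeR adjusted p = 3.82e-06), 1.38 ± 0.06 with the oligonucleotide (edgeR adjusted p = 8.61e-09) and 0.87 ± 0.05 with UHRF1 siRNA (edgeR adjusted p = 1.64e-22).

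The change of RIGI was larger than that of nearly all genes around it. In the clone the median of the DDX58 neighbours was 0.83 and the gene lay 2.25 above it, higher than all 20. The neighbours were themselves mostly high, with 14 called higher and 4 lower: MOB3B was at 2.21, the galactosyltransferase B4GALT1 at 2.03, the chaperone partners DNAJA1 and BAG1 both at 1.65, and ACO1, the cytosolic aconitase, at -0.35. With SMYD3 siRNA the neighbours of DDX58 had a median of -0.05, and the gene lay 0.84 above it and above all 20. With the oligonucleotide it lay 1.37 above and again above all 20, with ACO1 lowest at -1.22. With UHRF1 siRNA it lay 0.96 above and over 19 of 20, the exception being LINGO2 at 2.30.

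CD274 (chromosome 9, 5450503 to 5470566, plus strand) read 316, 373 and 319 scaled reads in the parental libraries and 2747, 2887 and 2558 in the clone, a log2 fold change of 3.02 ± 0.07. With SMYD3 siRNA it went from 27.8, 27.8 and 29.8 CPM to 51.6, 47.0 and 45.2 CPM, with the oligonucleotide from 18.6 and 20.2 CPM to 32.5 and 34.4 CPM, and with UHRF1 siRNA from 67.8, 79.4 and 71.5 CPM to 131, 140.2 and 148 CPM. No CD274 groups overlapped. The log2 fold changes were 0.75 ± 0.08 (edgeR adjusted p = 2.80e-06), 0.78 ± 0.07 (edgeR adjusted p = 1.27e-05) and 0.94 ± 0.05 (edgeR adjusted p = 8.06e-21).

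CD274 lay 2.20 above the median of its neighbours in the clone, higher than all 20, where the neighbours' median was 0.82 with 16 called higher and 2 lower. GLDC, of the glycine cleavage system, and RCL1, a ribosome processing factor, were the highest of them, at 2.13 and 2.14. With SMYD3 siRNA CD274 lay 0.82 above its neighbours and over 19 of 20 (ERMP1 was at 0.78). With the oligonucleotide it lay 0.82 above and over all 20, of which 1 was called lower and none higher. With UHRF1 siRNA it lay 0.97 above and over 19 of 20, SPATA6L being higher at 1.13.

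PDCD1LG2 (chromosome 9, 5510570 to 5571254, plus strand), next to CD274 and with the same neighbours, read 25.1, 33.4 and 31.3 scaled reads in the parental libraries and 714, 731 and 717 in the clone, a log2 fold change of 4.55 ± 0.12. With SMYD3 siRNA it went from 7.01, 7.41 and 6.89 CPM to 10.5, 10.0 and 8.66 CPM, with the oligonucleotide from 3.48 and 4.19 CPM to 6.82 and 7.07 CPM, and with UHRF1 siRNA from 40.6, 50.2 and 44.1 CPM to 59.1, 63.0 and 61.4 CPM. Its groups did not overlap. The PDCD1LG2 log2 fold changes were 0.45 ± 0.10 (edgeR adjusted p = 0.00222), 0.85 ± 0.14 (edgeR adjusted p = 9.39e-04) and 0.44 ± 0.06 (edgeR adjusted p = 5.56e-09). The gene lay above its neighbours' median by 3.74 in the clone, 0.52 with SMYD3 siRNA (over 16 of 20), 0.89 with the oligonucleotide (over all 20) and 0.48 with UHRF1 siRNA (over 17 of 20).

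JAK2 (chromosome 9, 4984390 to 5128183, plus strand) was the gene of this group whose change in the clone did not exceed the median of its 20 neighbours. It read 295, 329 and 324 scaled reads in the parental libraries and 453, 489.6 and 413 in the clone, a log2 fold change of 0.51 ± 0.08, which was 0.14 below the median of its 20 neighbours (0.66) and above only 7 of them. With 5 neighbours on each side JAK2 was 0.19 above their median, and with up to 20 on each side 0.02 below it. In the clone, then, JAK2 stood near the median of its neighbours, and the 20 nearest ran from -1.22 to 3.08. With SMYD3 siRNA JAK2 went from 12.7, 11.9 and 12.3 CPM to 20.2, 16.9 and 17.2 CPM, and with UHRF1 siRNA from 10.7, 12.0 and 12.3 CPM to 20.8, 18.4 and 16.9 CPM. Its log2 fold changes were 0.56 ± 0.09 (edgeR adjusted p = 1.84e-04) and 0.68 ± 0.08 (edgeR adjusted p = 3.37e-10), at 0.65 and 0.54 above its neighbours. With the oligonucleotide JAK2 read 11.1 and 10.6 CPM before and 12.5 and 12.8 CPM after, and its 0.22 ± 0.09 did not pass the threshold (edgeR adjusted p = 0.112). Whether JAK2 differs between the comparisons was not tested.

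**Figure D4:**
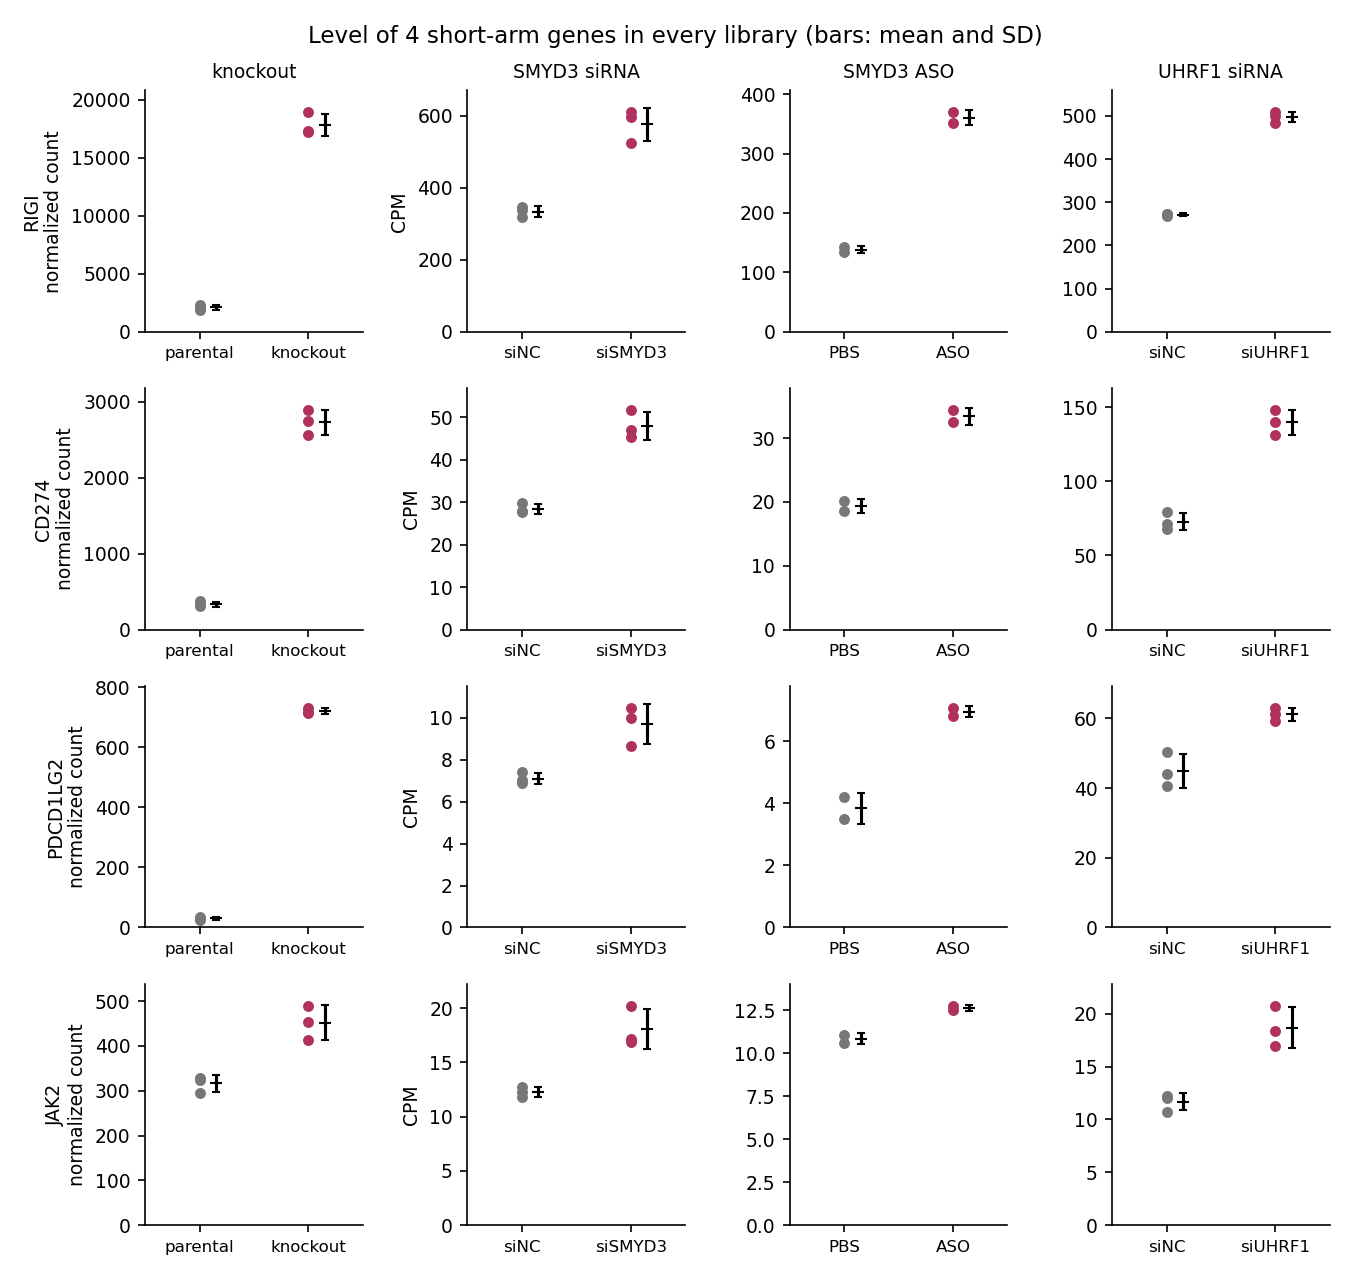
Rows are RIGI, CD274, PDCD1LG2 and JAK2 and columns are the comparisons; each point is 1 library, in scaled reads (normalized count) for the knockout and CPM elsewhere, with axes from 0 and bars for mean and SD. The groups are apart in all 16 panels.

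**Figure D5:**
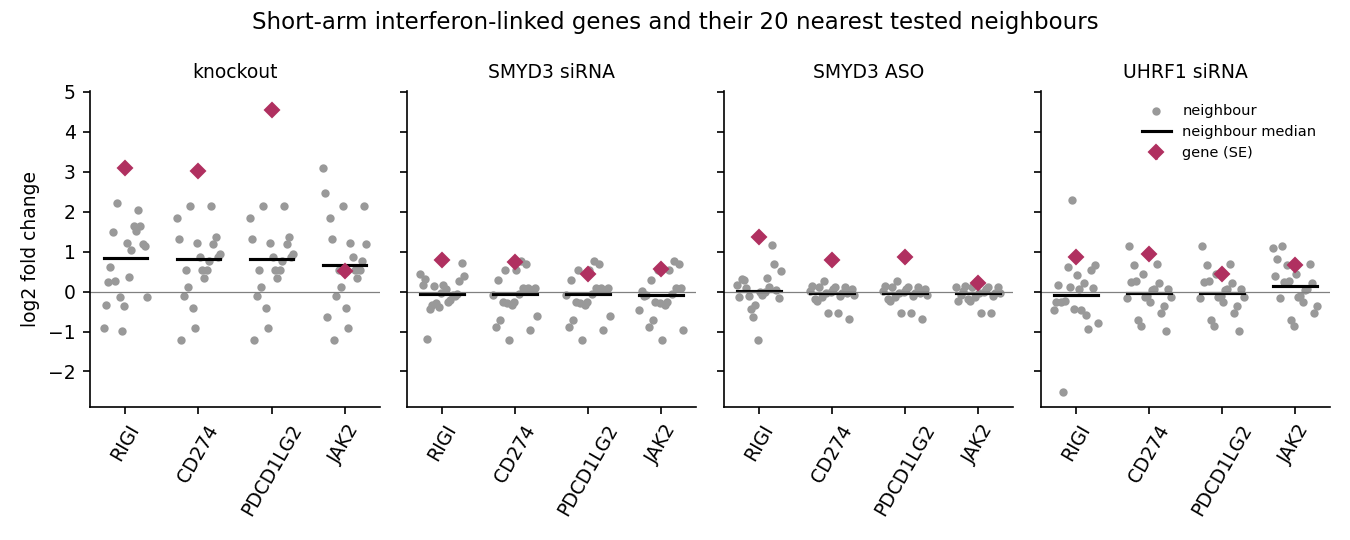
The vertical axis is the log2 fold change in each comparison; diamonds are the 4 genes with their SE, grey points their 20 nearest tested neighbours in order, and black bars the neighbours' median. RIGI, CD274 and PDCD1LG2 lie above the bar in each panel, and JAK2 lies 0.14 below it in the knockout and above it elsewhere.

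The interferon genes of the cluster were nearly silent, so that a rise or fall of most could not be detected at this depth. Of 17 listed type I interferon genes 14 had 0 reads in all 16 libraries of the count tables, where a count of 0 allows up to 3 reads in a library, and the knockout table lists only IFNE, an interferon of epithelia. IFNE read 30.1, 38.7 and 23.7 scaled reads in the parental libraries and 11.9, 20.1 and 19.1 in the clone, at a log2 fold change of -0.83. With UHRF1 siRNA IFNE went from 0.0315, 0.125 and 0.162 CPM to 0.251, 0.535 and 0.372 CPM, from 20 to 68 reads in all, and its 1.85 ± 0.57 passed the test (edgeR adjusted p = 0.00402). With SMYD3 siRNA its change of -0.13 did not pass (edgeR adjusted p = 0.832). Over the 3 libraries of a group IFNB1 had 4 reads with control siRNA and 16 with UHRF1 siRNA, and 12 and 19 in the SMYD3 siRNA table, and was not tested. Among the short-arm chemokines and cytokine receptors only IL11RA, the interleukin-11 receptor, was tested: it was at -2.92 in the clone and fell by 0.99 on the log2 scale with UHRF1 siRNA (edgeR adjusted p = 5.84e-08).

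The counts of the gene lists that follow stand beside the shares over all genes tested: 42.1% called higher and 42.5% lower in the clone, 24.2% and 24.4% with SMYD3 siRNA, 11.3% and 10.3% with the oligonucleotide, and 32.0% and 32.7% with UHRF1 siRNA. In the clone 64.7% of all chromosome 9 genes tested were called higher and 25.8% lower, beside 47.2% and 38.8% of genes placed on other chromosomes. Nothing is read from a list's knockout count, since those values selected the chromosome. No list was tested as a set.

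The genes that flank the interferon cluster went several ways. Of 10 tested in the knockout 5 were higher and 2 lower. MTAP, a methionine salvage enzyme, read 348, 396 and 372 scaled reads in the parental libraries and 1845, 1984 and 1820 in the clone (2.34 ± 0.06). CDKN2B, an inhibitor of CDK4 and CDK6, read 1282, 1257 and 1374 against 669, 654 and 744 (-0.92 ± 0.06), and CDKN2A was at -0.10 ± 0.28. With UHRF1 siRNA 4 of 11 rose and 3 fell: CDKN2B went from 17.4, 15.7 and 17.9 CPM to 71.1, 74.2 and 73.0 CPM (2.10 ± 0.06, edgeR adjusted p = 7.22e-35), and CDKN2A from 0.425, 0.766 and 0.615 CPM to 2.46, 1.69 and 1.95 CPM (1.75 ± 0.26, edgeR adjusted p = 4.23e-08). MTAP fell by 0.36 there (edgeR adjusted p = 0.00112). With SMYD3 siRNA 4 of 11 rose and 4 fell, and with the oligonucleotide none rose and 1 fell. CDKN2A and CDKN2B were 2 of the 4 falls with SMYD3 siRNA, and both calls were lost without siNC replicate 2 (edgeR adjusted p = 0.0806 and 0.134), SMYD3 siRNA replicate 2 (edgeR adjusted p = 0.110 and 0.0655) or SMYD3 siRNA replicate 3 (edgeR adjusted p = 0.0751 and 0.0784). CDKN2A was also lost without siNC replicate 1 and with DESeq2 (adjusted p = 0.115), and CDKN2B without siNC replicate 3 or SMYD3 siRNA replicate 1.

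Interferon-induced and immune genes of the long arm were followed in the same way. Of 14 tested 11 were higher and 1 lower in the clone, 4 rose and 6 fell with SMYD3 siRNA, 4 rose and 2 fell with the oligonucleotide, and 8 rose and 6 fell with UHRF1 siRNA. TRIM14, an adaptor of antiviral signalling at the mitochondrion, read 2047, 2474 and 2208 scaled reads in the parental libraries and 13181, 13491 and 12939 in the clone. TRIM14 rose with SMYD3 siRNA (284, 298 and 255 CPM to 379, 437 and 403 CPM; 0.54 ± 0.09, edgeR adjusted p = 1.25e-04) and with the oligonucleotide (177 and 196 CPM to 275 and 312 CPM; 0.65 ± 0.07, edgeR adjusted p = 4.91e-05). It fell by 0.11 with UHRF1 siRNA (edgeR adjusted p = 0.0436), a call that was lost with DESeq2 (adjusted p = 0.0555) and without siNC replicate 1, UHRF1 siRNA replicate 2 or UHRF1 siRNA replicate 3 (edgeR adjusted p from 0.129 to 0.164). TRIM14 lay 2.12, 0.51 and 0.61 above its neighbours in the SMYD3 comparisons and 0.19 below them with UHRF1 siRNA. That last sign depends on the neighbours taken: TRIM14 was 0.05 above with 5 on each side and 0.24 below with 20. Within libraries, its log2 level less the neighbours' median was 2.89, 2.81 and 2.84 with control siRNA and 3.04, 2.94 and 2.92 with UHRF1 siRNA.

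TDRD7, an interferon-induced inhibitor of autophagy and viral replication, was higher in all 4 comparisons. It read 1801, 2073 and 1989 scaled reads in the parental libraries and 5817, 5981 and 5728 in the clone, and lay 1.12 above its neighbours. TDRD7 rose by 0.76 ± 0.08 with SMYD3 siRNA (edgeR adjusted p = 2.28e-06), 0.77 ± 0.05 with the oligonucleotide (edgeR adjusted p = 9.02e-07) and 0.66 ± 0.05 with UHRF1 siRNA (edgeR adjusted p = 1.49e-17), at 0.49, 0.78 and 0.46 above its neighbours.

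TOR1B, a torsin ATPase of the endoplasmic reticulum, did not follow these genes. It was at 1.64 in the clone, 0.33 above its neighbours and over 13 of 20. TOR1B fell by 0.47 with SMYD3 siRNA (edgeR adjusted p = 1.47e-04) and fell by 0.21 with UHRF1 siRNA (edgeR adjusted p = 9.49e-04), at -0.46 and -0.40 relative to its neighbours. With the oligonucleotide its 0.21 did not pass (edgeR adjusted p = 0.0960), though it passed without a filter (edgeR adjusted p = 0.0362), without oligonucleotide replicate 1 (0.00816) and without PBS replicate 2 (0.0203).

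Other immune genes of the arm did not share one direction. TRAF1, an adaptor of TNF receptors, was at 3.55 in the clone and rose by 0.90 with SMYD3 siRNA and 2.43 with UHRF1 siRNA. TLR4, the receptor for bacterial lipopolysaccharide, read 46.5, 85.4 and 66.9 scaled reads in the parental libraries and 1195, 1362 and 1194 in the clone, did not pass the test with SMYD3 siRNA or the oligonucleotide (0.08 and 0.14), and fell by 2.34 with UHRF1 siRNA. The kinase SYK was at 1.20 in the clone but fell by 1.09 with SMYD3 siRNA and by 0.94 with UHRF1 siRNA.

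Genes with general roles made up 1 list for each arm. Of 20 short-arm genes of the cell's machinery 18 were higher and 1 lower, with a median 0.93 above the other chromosomes; in the other comparisons 6 rose and 5 fell (SMYD3 siRNA), 4 rose and 1 fell (oligonucleotide), and 7 rose and 7 fell (UHRF1 siRNA). NOL6, a ribosome assembly protein, was at 2.46 and VCP, an ATPase that unfolds ubiquitinated proteins, at 1.18 in the clone. Of 20 such long-arm genes 17 were higher and 3 lower in the clone (median 0.66 above), and with UHRF1 siRNA 3 rose and 13 fell (median -0.23). The ribosomal protein genes RPL12, RPL35 and RPL7A were among those that fell with UHRF1 siRNA, by 0.71, 0.63 and 0.47; such genes have many near-identical pseudogene copies, so their counts are uncertain.

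Of chromatin and transcription factor genes 10 of 11 were higher in the clone on the short arm and 14 of 17 on the long arm. SMARCA2, an ATPase of the SWI/SNF complex, was at 1.22, KDM4C, a histone demethylase, at 1.20 and SET, a histone chaperone, at 1.09. SMARCA2 rose by 0.37 with SMYD3 siRNA and fell by 0.26 with the oligonucleotide, a call lost without PBS replicate 1 (edgeR adjusted p = 0.0848). With UHRF1 siRNA 7 of 10 short-arm genes of this kind rose and 3 fell; UHRF2, the paralog of UHRF1, fell by 0.36. On the long arm PHF19, a Polycomb partner, was at 1.12 in the clone and fell by 0.31 with the oligonucleotide and by 2.14 with UHRF1 siRNA.

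Cell cycle and repair genes lie on both arms. Of 14 tested 8 were higher and 3 lower in the clone, 3 rose and 7 fell with SMYD3 siRNA, and 4 rose and 6 fell with UHRF1 siRNA; of 13 tested with the oligonucleotide none rose and 3 fell. MELK, a mitotic kinase, read 10528, 11243 and 10833 scaled reads in the parental libraries and 7676, 7909 and 7662 in the clone (-0.49), fell by 0.66 with SMYD3 siRNA and fell by 3.14 with UHRF1 siRNA. CKS2, a CDK subunit, fell by 1.15 with SMYD3 siRNA and fell by 2.01 with UHRF1 siRNA. Of epithelial, matrix and signalling genes 12 of 19 were higher and 4 lower in the clone. The lowest was ALDH1A1, which makes retinoic acid, at 3210, 2842 and 3153 scaled reads in the parental libraries and 44.6, 61.8 and 53.4 in the clone (-5.83). With SMYD3 siRNA ALDH1A1 rose by 0.84.

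Among called genes whose groups were apart and whose log2 CPM averaged at least 1, the largest changes differed between the comparisons; genes of lower level, some with larger changes, are left out of this ranking. With SMYD3 siRNA the largest such rises were SHOC1 at 2.52 on the long arm and BNC2, a zinc finger protein, at 1.53 on the short arm, and the largest such falls MVB12B at -1.25 and the ciliary gene IFT74 at -1.18. BNC2 averaged 1.51 CPM with control siRNA and 4.37 CPM with SMYD3 siRNA. It fell by 0.74 with the oligonucleotide (edgeR adjusted p = 0.00935), and by 0.48 without PBS replicate 2. With the oligonucleotide DDX58 rose most among short-arm genes. On the long arm the noncoding RNA AL391056.1 rose most, by 1.28, followed by FRMD3 at 1.02, which averaged 1.32 CPM with PBS and 2.69 CPM with the oligonucleotide. With UHRF1 siRNA the water channel AQP3 rose by 2.30, the largest such rise on the short arm, and the kinesin KIF24 fell by 3.10, next to MELK.

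Chromosome 9 genes called higher in all 4 comparisons, which used separate controls, numbered 13 of 512 tested in each (2.54%), beside 249 of 13019 over all chromosomes (1.91%), a share that includes the knockout calls behind the choice of the chromosome. Of the 13, 8 lay on the short arm and 5 on the long arm, and nothing is read from that split. DDX58, CD274, PDCD1LG2 and TDRD7 were among them, with CREB3, BAG1 and NOL6 on the short arm and TLE4, SLC2A6 and GOLGA1 on the long arm. BAG1, a cofactor of HSP70 chaperones, read 505, 513 and 525 scaled reads in the parental libraries and 1609, 1623 and 1613 in the clone, and rose by 0.82 ± 0.08, 0.53 ± 0.08 and 0.25 ± 0.07 in the knockdowns. Called lower in all 4 were 3 genes (0.586%, beside 0.845% of all): WNK2, DNM1 and ABCA2, all on the long arm. With DESeq2 the oligonucleotide calls of NOL6, GOLGA1, SLC2A6 and WNK2 did not pass (adjusted p = 0.101, 0.147, 0.218 and 0.132), and without PBS replicate 1 none of these 4 passed in edgeR (adjusted p from 0.0844 for WNK2 to 0.193 for SLC2A6). NOL6 and GOLGA1 also failed without oligonucleotide replicate 2, SLC2A6 without oligonucleotide replicate 1 or PBS replicate 2, and TLE4 in the SMYD3 siRNA comparison without siNC replicate 3.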

How the data were processed

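RNA-seq tables of 22 libraries were used as deposited. Per the submitters' processing notes, bcl2fastq, Bowtie and hg38 were used; counting settings and annotation: not given in the sources used here. Per the file headers and values, 3 tables hold raw read counts per gene; the authors' knockout table holds a signal, counts divided by a size factor, from which whole reads were recovered (100% of values within 0.01). Genes were placed by symbol through the antisense oligonucleotide table. The knockout used limma 3.58.1 on log2(value + 1), with values of 10 or more in 3 libraries; fold changes on that scale understate low genes. Counts used edgeR 4.0.16 (TMM, filterByExpr, quasi-likelihood test). P-values were Benjamini-Hochberg adjusted over all genes and called at 0.05. They set the difference between groups against the spread between these replicates. The knockout libraries come from 1 clone, so their spread holds no difference between clones. Scripts were tested on simulated data. DESeq2 1.42.0, other scalings, filters and left-out replicates were alternatives. Members and gene lists were chosen with earlier results of these data known. Named genes are members of the lists, the 5 largest rises and falls per arm where groups were apart and log2 CPM averaged at least 1, near neighbours and genes called in all comparisons; others were named after their values were seen. Of 23588 symbol-less rows of the SMYD3 siRNA table, 20032 were named through GENCODE; 24 knockout symbols turned into dates were renamed by identifier.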

Additional observations from a re-analysis of the deposited data

How the results depend on the processing

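Alternatives comprised other scalings, filters and pseudocounts, DESeq2, the replicate block, left-out libraries and, chosen after seeing the data, a join by Ensembl identifier. In the knockout both arm medians stayed above the other chromosomes under each: the long arm was 0.386 with a mean of 100 or more, 0.422 with the Ensembl join and 0.400 to 0.432 without 1 library. JAK2 less its neighbours turned from -0.14 to 0.19 with 5 neighbours on each side; the cause was not tested. With upper quartile scaling the knockout changes of ASS1, IFT74, KIF24 and RPL12 turned negative, to -0.228, -0.0202, -0.121 and -0.0182, as that scaling lowers all changes. Over all alternatives, the values of single genes kept direction and call 3814 times, lost the call 144 times, gained it 51 times and turned sign 5 times. The other arm medians are close to 0 and some change sign. With SMYD3 siRNA the long arm was -0.0487 with DESeq2 and -0.0463 unfiltered, and from -0.0276 to 0.0172 without 1 library. The short arm was 0.0549 at a mean of 10 CPM or more, and from -0.0663 to 0.0110 without 1 library. At 10 CPM or more 117 chromosome 9 genes fell, with 10086 genes tested over all chromosomes in place of 18965. With the oligonucleotide DESeq2 called 41 higher and 47 lower, with arms at 0.0102 and -0.0518; unfiltered they were 0.0104 and -0.0514, at 10 CPM or more -0.0176 and -0.0274, and without 1 library 0.00744 to 0.0240 and -0.0407 to -0.0290, with 49 to 88 genes lower. With UHRF1 siRNA the arms were 0.00505 and -0.0297 (DESeq2), 0.00570 and -0.0298 (unfiltered), 0.143 and -0.0130 (10 CPM or more), 0.0502 and -0.0118 without genes near the centromere, and 0.0299 to 0.0486 and -0.0452 to -0.0214 without 1 library. The cause of these moves was not tested.

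Same-numbered replicates did not deviate together in every pair (correlations of 0.108, 0.247 and 0.00275 in the knockout, 0.225, 0.442 and -0.122 with SMYD3 siRNA, and -0.0445, -0.101 and 0.0975 with UHRF1 siRNA; 0.459 in both oligonucleotide pairs), and replicate 3 of the knockout and SMYD3 siRNA tables and replicates 1 and 2 of the UHRF1 table did not correlate best with their own number. With the replicate block the oligonucleotide called 120 chromosome 9 genes higher and 136 lower, and JAK2 passed there (edgeR adjusted p = 0.0418); the other counts of calls moved by less than 1.5 times. Genes below the filter, most interferon genes among them, are limited by depth.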
